A study of Mus musculus with 5 samples.

Results

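HSF1 peaks at the ends of noncoding genes in mouse cortical neurons are described here, for untreated neurons and for neurons given NMDA. A peak belongs to this group when a gene that does not code for a protein ends or starts within 1000 bp of its summit and the summit is more than 1000 bp from every end of a protein-coding gene, on the mouse genome build GRCm38. Of 3316 peaks in the control list, 140 met this rule, and of 3646 peaks in the NMDA list, 158 did, which makes 298 of 6962 peaks in all. The rule uses positions only. The fold enrichment, the q value and the overlap between the lists played no part in choosing the peaks.

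The neurons were primary cultures from the cortex of wild-type Swiss-Webster embryos of embryonic day 16, kept until day 13 in culture. Control neurons received no NMDA, and the treated neurons received NMDA, which activates the NMDA-type glutamate receptors, at 50 µM for 10 min followed by 20 min without the drug. HSF1 was precipitated from chromatin in 2 libraries per condition, which the labels call biological replicates, and 1 input library of unprecipitated chromatin came from neurons without NMDA. The authors deposited 1 peak list per condition and no value per replicate, so no peak has a replicate error and every test below compares the lists, not the conditions. The depth of the libraries is unknown, and such cultures can hold some glia besides neurons, which peak lists cannot show.

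HSF1 is the main transcription factor of the heat shock response. Under stress it forms trimers and binds heat shock elements, which are inverted repeats of the letters nGAAn, and it is best known for the promoters of protein-coding chaperone genes. Noncoding genes are a mixed group. Long noncoding RNAs (lncRNAs) are made by RNA polymerase II from promoters much like those of coding genes, and some of them are hosts from whose introns small nucleolar RNAs (snoRNAs) or microRNAs are cut. Transfer RNAs (tRNAs) are made by RNA polymerase III from promoters that lie inside the gene. Pseudogenes are copies of other genes, often without a promoter of their own. HSF1 is also known to drive transcription of satellite repeats in stressed human cells.

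The promoter sequences of 6 lncRNA genes under these peaks are shown first, because they show the start regions that these peaks reach and where the letters of a heat shock element occur in them. Each is a RefSeq window of GRCm38.p6, read in the direction of transcription from 250 bases before the start site to 50 bases after it. Capitals mark matches to a 2-unit heat shock element, spelled GAANNTTC or TTCNNGAA. Both spellings are their own reverse complement, so each search covers both strands. Gm39671 (chr11:29808615-29808914, plus strand) had the highest fold of the NMDA peaks that hold a start site of that table. Snhg16 (chr11:116671410-116671709, plus strand) had a peak in both lists. Malat1 (chr19:5802623-5802922, minus strand) and Snhg5 (chr9:88522848-88523147, minus strand) are well-known lncRNA genes with a peak in the NMDA list. Gm52243 (chr16:31897192-31897491, minus strand) held the longest match, and Gm39084 (chr7:123098189-123098488, minus strand) is a gene of the control list with a match.
Gm39671: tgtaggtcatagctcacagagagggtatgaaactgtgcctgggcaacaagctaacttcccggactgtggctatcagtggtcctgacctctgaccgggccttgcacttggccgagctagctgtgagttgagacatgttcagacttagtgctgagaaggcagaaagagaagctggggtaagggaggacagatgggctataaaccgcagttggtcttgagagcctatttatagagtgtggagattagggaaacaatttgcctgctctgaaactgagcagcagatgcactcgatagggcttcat
Snhg16: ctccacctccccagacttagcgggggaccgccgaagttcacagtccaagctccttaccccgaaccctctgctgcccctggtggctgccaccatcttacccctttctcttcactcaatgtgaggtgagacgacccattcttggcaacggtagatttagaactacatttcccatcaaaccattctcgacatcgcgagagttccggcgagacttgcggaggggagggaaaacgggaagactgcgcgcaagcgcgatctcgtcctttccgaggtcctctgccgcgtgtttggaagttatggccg
Malat1: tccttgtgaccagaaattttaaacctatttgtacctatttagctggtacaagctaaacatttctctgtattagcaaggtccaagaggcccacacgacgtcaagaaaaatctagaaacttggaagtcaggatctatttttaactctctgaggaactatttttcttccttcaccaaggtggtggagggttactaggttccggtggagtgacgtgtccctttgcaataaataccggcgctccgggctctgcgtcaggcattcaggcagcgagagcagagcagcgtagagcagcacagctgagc
Snhg5: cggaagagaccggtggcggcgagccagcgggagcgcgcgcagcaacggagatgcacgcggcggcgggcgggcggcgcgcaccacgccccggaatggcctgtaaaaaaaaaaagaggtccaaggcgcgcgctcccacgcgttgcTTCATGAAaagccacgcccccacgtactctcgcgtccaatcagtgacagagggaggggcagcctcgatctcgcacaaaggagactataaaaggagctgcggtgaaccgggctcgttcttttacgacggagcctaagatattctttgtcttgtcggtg
Gm52243: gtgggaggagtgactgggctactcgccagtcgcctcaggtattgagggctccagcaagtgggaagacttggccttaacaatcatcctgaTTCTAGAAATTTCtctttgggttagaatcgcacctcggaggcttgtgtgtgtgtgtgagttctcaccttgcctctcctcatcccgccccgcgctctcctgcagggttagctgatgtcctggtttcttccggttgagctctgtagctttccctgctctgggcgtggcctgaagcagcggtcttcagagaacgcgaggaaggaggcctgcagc
Gm39084: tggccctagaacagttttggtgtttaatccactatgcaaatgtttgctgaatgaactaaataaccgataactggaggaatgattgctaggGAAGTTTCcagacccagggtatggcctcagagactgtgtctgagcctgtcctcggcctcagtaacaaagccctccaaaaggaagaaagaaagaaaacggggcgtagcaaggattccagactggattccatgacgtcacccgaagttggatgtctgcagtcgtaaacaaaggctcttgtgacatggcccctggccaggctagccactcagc

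In Gm52243 the capitals join overlapping 2-unit matches into a 3-unit element, spelled GAANNTTCNNGAA or TTCNNGAANNTTC. The NMDA peak covers all 300 bases of the windows of Snhg16 and Gm52243, 215 of Malat1, 103 of Gm39671 and only 54 of Snhg5. The control peak covers all 300 of Gm39084. The control peak of Snhg16 (116671825 to 116672181) lies outside the window printed for that gene. The marked letters of Gm52243 and Gm39084 lie inside the peak, and those of Snhg5 lie outside it. The windows of Gm39671, Snhg16 and Malat1 held no 2-unit match, which says only that these letters are not in these windows. Of the lncRNA genes with a peak, 74 of 97 (control list) and 80 of 108 (NMDA list) had a promoter entry. A window overlapped the gene's own peak for 18 control genes (19 windows) and 24 NMDA genes (29 windows). The overlap ran from 10 to 300 bases in control and from 13 to 300 in NMDA. Anywhere in the window, a 2-unit match was found in 6 of the 19 control windows (31.6%) and in 6 of the 29 NMDA windows (20.7%). Among all 32851 promoter windows of the same length the share was 15.1%, and among the 11588 windows of lncRNA genes it was 17.6%. A 3-unit match was present in 0 control windows and in 2 NMDA windows (6.90%), both belonging to overlapping starts of Gm52243, against 0.603% of all windows and 0.759% of lncRNA windows. Wholly inside the peak, however, a 2-unit match lay in 1 of the 19 control windows (Gm39084) and in 4 of the 29 NMDA windows (both of Gm52243, D730003I15Rik and Mir100hg). Most matches in control windows were therefore outside the peak, and the shares over whole windows do not describe sequence under the peaks. They rest on few windows and are a description. The genome sequence under peaks away from annotated starts was not analysed here.

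The share of HSF1 peaks at noncoding gene ends did not differ between the lists beyond counting error. It was 4.22% of the control list (95% exact interval 3.56 to 4.96) and 4.33% of the NMDA list (3.70 to 5.05), an odds ratio of 1.03 for NMDA over control (two-sided Fisher's exact test, p = 0.859). Peaks at lncRNA genes were the largest class, with 97 control peaks (2.93%) and 107 NMDA peaks (2.93%). Small RNA genes had 18 control peaks (0.543%) and 31 NMDA peaks (0.850%), and pseudogenes had 33 (0.995%) and 25 (0.686%). A peak near genes of several classes counts in each. The odds ratios were 1.00 for lncRNAs, 1.57 for small RNAs and 0.687 for pseudogenes, and none passed Fisher's exact test after Benjamini-Hochberg adjustment over the 3 classes (adjusted p = 1, 0.280 and 0.280). Intervals here cover counting error only.

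**Figure D1:**
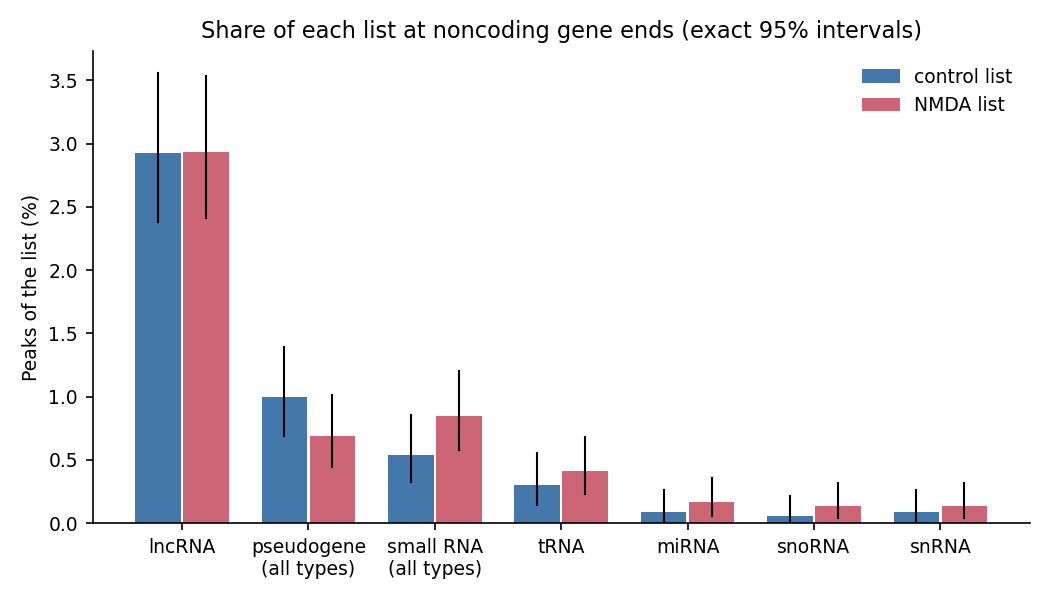
Share of each peak list, in percent, at ends of noncoding genes of each class, for the control and the NMDA list, with exact 95% intervals that cover counting error only. The shares for lncRNA ends were 2.93% in both lists, and the intervals for small RNA, tRNA and pseudogene ends overlap between the lists.

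Set against peaks at protein-coding genes, the noncoding group made up more of the gene-end peaks in the NMDA list. The control list had 491 peaks within 1000 bp of a protein-coding end and the NMDA list had 367, so noncoding ends were 22.2% of 631 gene-end peaks in control and 30.1% of 525 after NMDA (odds ratio 1.51, two-sided Fisher's exact test, p = 0.00238). The difference lay mainly on the protein-coding side. Noncoding ends, with 140 and 158 peaks, were a similar part of each whole list (4.22% and 4.33%). Protein-coding ends had 491 peaks in the control list of 3316, but only 367 in the longer NMDA list of 3646. The higher noncoding share here is therefore not a rise of noncoding-end peaks within the NMDA list. The comparison of noncoding with protein-coding ends was added after the data were seen. With a 500 bp window for both kinds of end it did not pass (23.7% and 29.4%, odds ratio 1.34, Fisher's exact test, p = 0.0839), and with a 2000 bp window it did (22.4% and 33.3%, p = 1.13e-06).

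By gene, 97 of 12736 annotated lncRNA genes (0.762%) had such a peak in control and 108 (0.848%) in NMDA. Among tRNA genes the shares were higher, 14 of 430 genes (3.26%) and 26 of 430 (6.05%), but tRNA genes lie in clusters and 1 peak can serve several. Small RNA genes as a whole had 24 of 4213 genes (0.570%) and 44 of 4213 (1.04%), and pseudogenes 30 of 10609 (0.283%) and 23 of 10609 (0.217%). Protein-coding genes, counted with the same 1000 bp window, had 554 of 21900 (2.53%) and 421 of 21900 (1.92%). The lncRNA shares exclude any peak close to a coding gene. Without that exclusion 156 lncRNA genes (1.22%) had a peak in each list. Of 212 peaks near a noncoding end in each list, 72 in control and 54 in NMDA also lay within 1000 bp of a protein-coding end and were left out by the rule.

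High fold enrichment at lncRNA ends was found in the NMDA list, as it was at protein-coding ends. The deposited fold is the authors' own value for a peak, the ChIP signal over its background, and each list is scaled separately. The median fold of all 140 control peaks was 2.67 (1.28 to 4.00) and of all 158 NMDA peaks 2.80 (1.60 to 24.3), beside whole-list medians of 2.67 and 2.69. A fold of at least 4 was reached by 1 control peak (0.714%), where 0.513% of the control list did, and by 13 NMDA peaks (8.23%, exact interval 4.45 to 13.7), where 4.99% of the NMDA list did. Of these 13 peaks, 12 lay at lncRNA ends, which is 11.2% of the 107 lncRNA peaks, and 1 at a microRNA gene. At protein-coding ends, 4 of 491 control peaks and 23 of 367 NMDA peaks reached 4-fold. The highest fold there was 5.10 in control and 15.4 in NMDA. A deposited q below 0.05 was held by 103 control peaks (73.6%, background 68.9%) and by 122 NMDA peaks (77.2%, background 76.3%), close to the background of each list.

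**Figure D2:**
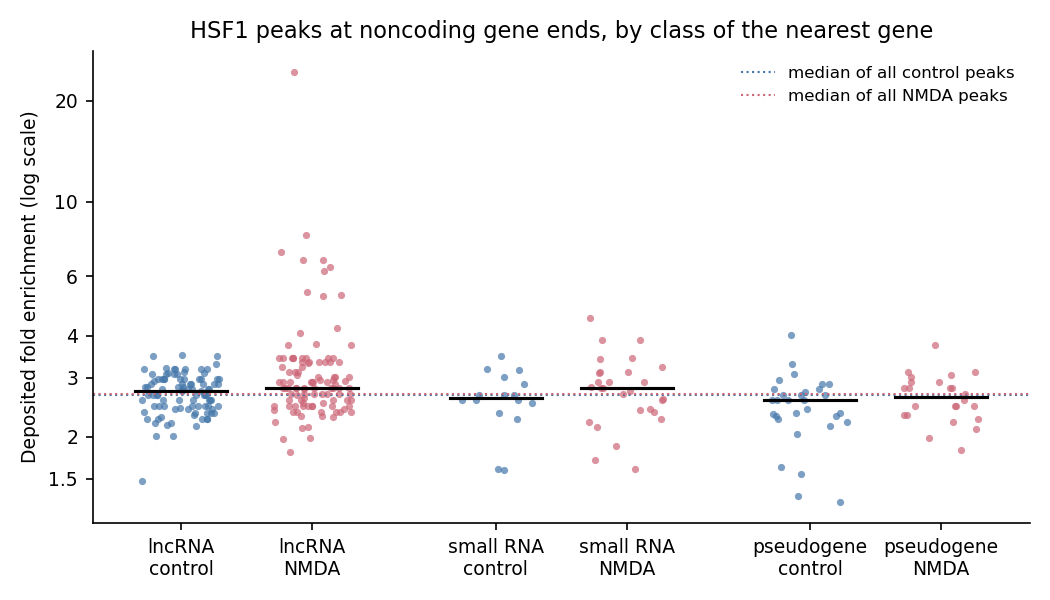
Deposited fold enrichment (log axis) of every peak at a noncoding gene end, by gene class, for the control and the NMDA list, which were scaled separately. Most points lie between 2- and 4-fold in both lists, and the points from 5.24- to 24.3-fold are all NMDA peaks at lncRNA ends.

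The highest of all 3646 NMDA peaks was at a lncRNA gene. It had 24.3-fold enrichment with a −log10 q of 225.5, and its summit lay 57 bp outside BC048559 (annotated at chromosome 10, 41746721 to 41780734), a lncRNA gene nested within the body of Cep57l1. The peak covers the end of BC048559 at 41746721, and whether that end is its start or its 3′ end was not determined here. The nearest protein-coding end was 27824 bp away, and the nearest summit of the control list was 43675 bp away. The next was Gm39671 at 7.97-fold (chromosome 11, 29808812 to 29809351), the gene whose promoter is printed above, with the summit 220 bp downstream of its start and inside the body of Eml6, a microtubule-binding protein gene. Gm40320 had 7.10-fold (chromosome 5, 124900207 to 124900808), and it is the single gene of the NMDA top group whose peak overlapped one of the control list, at 2.67-fold.

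Further down, Gm40876 and Gm40925, on chromosome 13, both had 6.72-fold, and Gm34322, on chromosome 9, had 6.38-fold. The value for 4921534H16Rik was 6.24-fold, inside Clstn2, which encodes the synaptic adhesion protein calsyntenin-2. The values were 5.38-fold for 4930447M23Rik, 5.27-fold for Gm46260 and 5.24-fold for Gm34945, which lies within the kinase gene Ulk4. The remaining lncRNA genes of at least 4-fold were 1700028E10Rik at 4.22 and Gm36495 at 4.09. Of these 12 lncRNA peaks, all except that of Gm40320 had no overlapping control peak. Only 2.61% of the whole NMDA list overlapped a control peak, so the lack of overlap is not particular to them. Most of these genes carry only a locus name.

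No control peak at a noncoding end had a fold of that size. The highest was at the pseudogene Gm18943, with 4.00-fold (chromosome 7, 99249481 to 99249872), rank 17 of the whole list. Gm52287 followed at 3.51-fold, the highest control lncRNA. E130310I04Rik, 4930528A17Rik and the leucine tRNA gene n-TLcag10 tied at 3.49-fold. The pseudogene Gm19121 and the lncRNA Gm34157 had 3.29-fold, and Gm52487 had 3.22-fold. Below these, peaks tied at 3.18-fold, among them Gm29398, Gm52046, Gm2824 and the isoleucine tRNA gene n-TIaat17. Fold values repeat because the deposited values take few distinct levels, so ranks within a tie carry no order.

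Well-known lncRNA genes carried peaks of moderate fold. Of 26 imprinted or brain-expressed lncRNA genes looked up by name, 0 had such a peak in control (0.762% of all lncRNA genes did) and 3 did in NMDA (11.5%, against 0.848% of all lncRNA genes). Malat1, which makes a very abundant nuclear RNA, had a 3.43-fold NMDA peak (chromosome 19, 5802708 to 5803176) with its summit 261 bp upstream of the start. Pvt1 had 3.76-fold with a summit 768 bp from an annotated end. Mir124-2hg, the host of a copy of the neuronal microRNA miR-124, had 3.12-fold, and a control summit lay 2012 bp away without overlap. Of 32 host genes of snoRNAs or microRNAs, 1 had a peak in control (Snhg16, 3.12%) and 5 did in NMDA (15.6%), beside 0.762% and 0.848% of all lncRNA genes. The 5 in NMDA were Snhg16 (3.33-fold), Snhg5 (3.23-fold), Mir124-2hg, Mir100hg (2.80-fold) and Snhg4 (2.80-fold). Snhg10 also had a control peak, but within 1000 bp of a protein-coding end, so the rule leaves it out, and no host gene was left out that way in NMDA. Mir124-2hg counts in both of these name lists, and the lists were chosen with earlier results of these data known. These counts are small, and the differences were not tested.

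Genes named as antisense to a protein-coding neighbour were few. Of 218 such genes, Pax6os1 (2.88-fold) and Fbxl12os (2.77-fold) had a control peak, and Far1os (3.05-fold), Chn1os3 (2.30-fold) and Zfp286os (2.22-fold) had an NMDA peak. These are 0.917% and 1.38% of the set, beside 0.762% and 0.848% of all lncRNA genes. Pax6os1 lies beside Pax6, a transcription factor gene of cortical progenitors, although its peak was 132950 bp from the nearest end of Pax6. Chn1os3 is named after Chn1, which encodes the Rac-regulating protein chimerin-1. Fbxl12os is annotated as a transcribed pseudogene and counts in that class. None of these 5 genes met the rule in both lists, which says little. Of all lncRNA genes only 5 did, of 97 in control and 108 in NMDA, and of all pseudogenes 2 did, of 30 and 23. Phtf1os had a peak in each list that lay within 1000 bp of a protein-coding end, as did 2 further genes in control and 1 in NMDA, and the rule leaves these out.

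Transfer RNA genes were the most frequent kind of small RNA gene. Nuclear tRNA genes had 9 control peaks with a median of 2.67-fold and 14 NMDA peaks with a median of 2.86-fold, and the mitochondrial genome added 1 peak to each list. In the gene names the letter after n-T is the amino acid and the 3 small letters are the anticodon. The highest values were 3.49-fold for n-TLcag10 in control and 3.87-fold for n-TMcat13, a methionine tRNA gene, in NMDA. The summit was within 200 bp of a tRNA gene end for 4 of 9 control peaks and 8 of 14 NMDA peaks. Several tRNA genes within 1000 bp were found at 3 control peaks and 7 NMDA peaks. The large tRNA cluster on chromosome 13, from 21 to 24 Mb, holds 104 of the 408 nuclear tRNA genes and had 4 peaks in each list. The share of all peaks at tRNA genes was 0.302% in control and 0.411% in NMDA (odds ratio 1.37, Fisher's exact test, p = 0.549), a difference within counting error.

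Small nucleolar, small nuclear (snRNA) and microRNA genes had few peaks. By gene, the control and NMDA shares were 0.149% and 0.373% of 1340 snoRNA genes and 0.244% and 0.489% of 1228 microRNA genes. They were 0.299% and 0.498% of 1004 snRNA genes, beside 0.570% and 1.04% of all small RNA genes. SnoRNA genes had 2 control and 5 NMDA peaks, of which Gm25232 was the highest at 3.87-fold, with its summit 44 bp from the gene's end. Snord1c, a snoRNA gene within Snhg16, was at the peak that both lists share. Snora74a, a snoRNA gene of the Snhg4 locus, had 2.80-fold in NMDA. SnRNA genes had 3 control and 5 NMDA peaks. Rnu11, which makes the U11 RNA of the minor spliceosome, had 2.67-fold in control with a summit 192 bp from its end, and the NMDA genes ranged from 2.14-fold to 3.12-fold.

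MicroRNA genes had 3 control peaks (Mir706, Mir7670 and Mir1931) and 6 NMDA peaks (Mir1952, Mir5619, Mir6365, Mir1931, Mir669n and Mir7007). Mature sequences are printed for the gene of highest fold, the gene with a summit closest to its end, and the gene found in both lists, with the seed (bases 2 to 8) in capitals and as RefSeq gives them for GRCm38.p6.
mmu-miR-1952: uCUCCACCcuccuucug
mmu-miR-5619-5p: aGUCACUAauggcauuuuugu
mmu-miR-5619-3p: cGAAAAGCucauuggugauuuc
mmu-miR-1931: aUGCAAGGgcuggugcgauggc

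All 8 microRNA genes matched a RefSeq entry, and their 11 mature sequences had 11 different seeds. Mir1952 had 4.52-fold in NMDA (chromosome 2, 138820365 to 138820740), the highest small RNA value in either list, with a summit 534 bp from the gene. Mir5619 had 2.90-fold with a summit 8 bp from its end, inside the protein-coding gene Nudt9. Mir1931, inside the kinase gene Cdk17, had 1.61-fold in control and 2.41-fold in NMDA at overlapping peaks. The control peak of Mir1931 had a −log10 q of 0.0446, far below the level that a q of 0.05 requires.

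Pseudogene peaks had a median of 2.57-fold in control and 2.69-fold in NMDA. The highest were Gm18943 at 4.00-fold in control and Gm7814 at 3.76-fold in NMDA. Of 20 pseudogenes named after a chaperone gene, 0 had a peak in either list, where 0.283% and 0.217% of all pseudogenes did, so a count of 0 among 20 says little. Reads of a pseudogene and of its parent gene can be hard to tell apart, and the sources used here do not give the treatment of multiply mapped reads.

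A few peaks at repeated or multicopy sequence combined a low fold with a very high −log10 q. Gm10222, a pseudogene on chromosome 1, had 2.03-fold in control and 2.11-fold in NMDA, with −log10 q of 228.2 and 234.6. The mitochondrial ribosomal RNA genes mt-Rnr1 and mt-Rnr2, with the valine tRNA gene TrnV between them, lay in a peak of 6372 bp in control, with 1.59-fold and a −log10 q of 377.02, and in one of 6371 bp in NMDA, with 1.60-fold and 371.5. A ribosomal RNA repeat copy on chromosome 17, annotated as Rn18s-rs5 and AY036118, had 4 control peaks of 1.28- to 1.55-fold with −log10 q from 3.17 to 24.4, and no NMDA peak. Whether read depth over such sequence has a part in these peaks was not tested.

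The share of peaks that overlapped the other list was higher at noncoding ends than among all other peaks, but close to that at protein-coding ends. In control 11 of 140 (7.86%, exact interval 3.99 to 13.6) overlapped an NMDA peak, by 1 bp or more, where 2.9% of the control list did and 85 of the 3176 other peaks did (2.68%, 2.14 to 3.30). In NMDA 12 of 158 (7.59%, 3.99 to 12.9) overlapped a control peak, where 2.61% of the NMDA list did and 83 of the 3488 other peaks did (2.38%, 1.90 to 2.94). At protein-coding ends 30 of 491 control peaks (6.11%, 4.16 to 8.61) and 31 of 367 NMDA peaks (8.45%, 5.81 to 11.8) overlapped the other list, and away from both kinds of end 55 of 2685 (2.05%, 1.55 to 2.66) and 52 of 3121 (1.67%, 1.25 to 2.18) did. The intervals at noncoding ends overlap those at protein-coding ends and not those away from gene ends, and no test was made. By gene, 63 protein-coding genes had an end peak in both lists, of 554 in control and 421 in NMDA. For lncRNA genes it was 5, of 97 and 108, and for pseudogenes 2, of 30 and 23. For small RNA genes it was 12, of 24 and 44, where 1 peak can serve several genes. The overlap depended on neighbours: without peaks up to 5000 bp from a protein-coding end it was 3.60% in control and 3.85% in NMDA, against 2.87% and 2.56% of other peaks. Without the ribosomal RNA repeat, Gm10222 and the mitochondrial genome it was 6.72% and 6.41%, against 2.65% and 2.35% of other peaks.

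**Figure D3:**
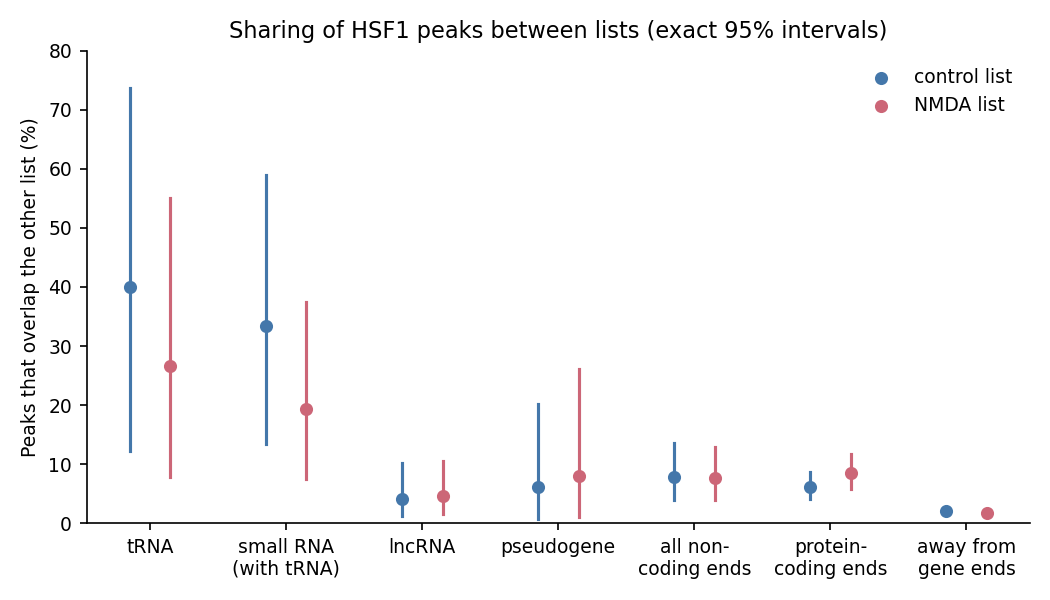
Percent of peaks with an overlap of 1 bp or more in the other list, for peaks at noncoding ends, for their classes, for protein-coding ends and for peaks away from gene ends, with exact 95% intervals that cover counting error only. Peaks at noncoding ends stood at 7.86% and 7.59%, protein-coding ends at 6.11% and 8.45%, peaks away from gene ends at 2.05% and 1.67%, and tRNA ends at 40% and 26.7% with wide intervals.

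Transfer RNA genes had the largest overlap, 4 of 10 control peaks (40%, exact interval 12.2 to 73.8) and 4 of 15 NMDA peaks (26.7%, 7.79 to 55.1), including the mitochondrial peak. At lncRNA ends it was 4 of 97 (4.12%) and 5 of 107 (4.67%), and at pseudogenes 2 of 33 (6.06%) and 2 of 25 (8%). Small RNA genes as a whole had 6 of 18 (33.3%) and 6 of 31 (19.4%). With peaks up to 5000 bp from a coding end removed, 1 of 5 control and 1 of 9 NMDA tRNA peaks overlapped the other list. Most of the tRNA overlap thus lay within 5000 bp of a protein-coding end. The overlaps so removed include the mitochondrial peak and a chromosome 13 site close to that limit.

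The tRNA genes of both lists fell into 3 nuclear sites. At n-TLtaa4 and n-TRtct1 (chromosome 19, leucine and arginine) the fold was 2.67 in control and 3.44 in NMDA. At n-TWcca7, n-TGtcc6 and n-TDgtc9 (chromosome 11, tryptophan, glycine and aspartate) it was 2.53 and 2.81. At n-TMcat7 and n-TGgcc7 (chromosome 13, methionine and glycine) it was 2.57 and 2.69, with summits 16 bp apart, and the nearest coding end, that of the histone gene H2bc13, was 4865 bp from the control summit. The NMDA value was the higher at all 3 sites, but the lists are scaled separately and no test was possible.

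Among lncRNAs of both lists, Gm40320 had the widest gap, 2.67-fold against 7.10-fold, with summits 76 bp apart. Snhg16 had 2.57-fold in control and 3.33-fold in NMDA, and the summits were 346 bp apart, the NMDA summit being 94 bp inside the start. Gm33258 had 2.77-fold in control and 2.31-fold in NMDA, so here the control value was the higher. Gm42307 had a peak in each list, 3.11-fold and 2.30-fold, that did not overlap. Gm34599 had a 2.58-fold NMDA peak overlapping a 2.67-fold control peak whose own summit lay too far from a noncoding end to count. The pseudogene Gm13726 had 1.63-fold in control and peaks of 1.83- and 1.98-fold in NMDA. The direction of the difference was thus mixed across the shared genes.

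**Figure D4:**
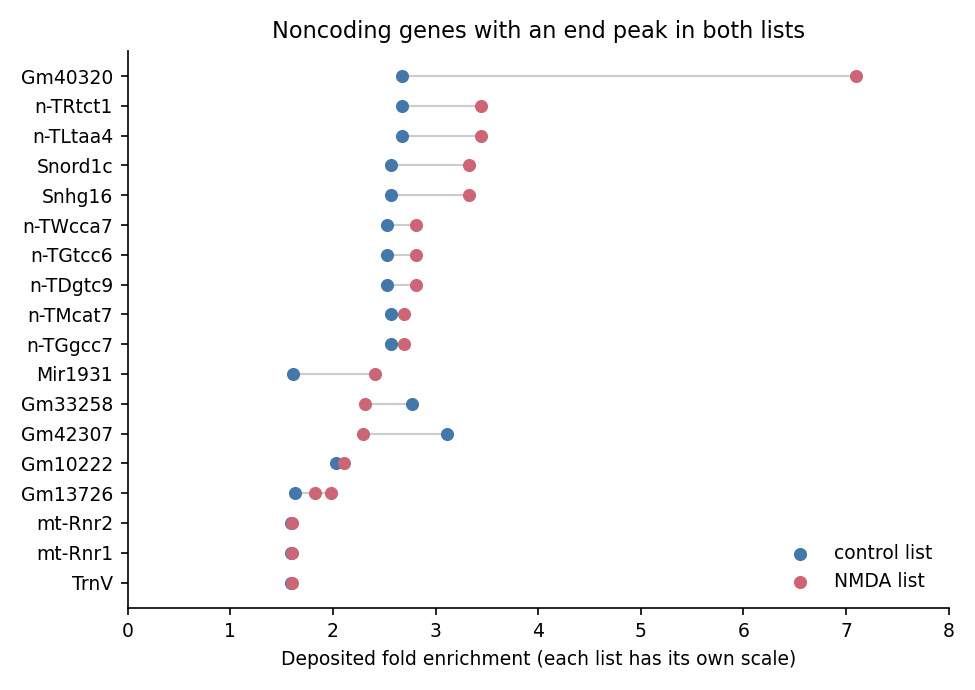
Deposited fold enrichment in the control and the NMDA list for noncoding genes with a peak in both, where genes at 1 peak share its value and the lists were scaled separately. Gm40320 stands at 2.67 in control and 7.10 in NMDA, and the other genes shown lie between 1.59 and 3.44 in both lists.

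The peaks lay mostly outside protein-coding genes. The summit was inside a protein-coding gene body for 45 of 140 control peaks (32.1%, exact interval 24.5 to 40.6), where 53.7% of the control list was, and for 44 of 158 NMDA peaks (27.8%, 21.02 to 35.5), where 49.4% of the NMDA list was. The rule keeps peaks away from coding ends but not from coding bodies. Among the 13 NMDA peaks that reached 4-fold, 38.5% were inside a coding body. A protein-coding end lay within 5000 bp of 29 control peaks (20.7%) and 28 NMDA peaks (17.7%), and none lay within 100000 bp of 34 (24.3%) and 38 (24.1%). None of the 140 control and 158 NMDA peaks at noncoding ends was on chromosome X. The whole lists held few peaks there. Without X, Y, the mitochondrial genome and unplaced sequences, 3309 of 3316 control peaks and 3639 of 3646 NMDA peaks remained.

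Summits were spread over the whole window, with more of them near the gene end than near the limit. The first 200 bp held 25.7% of control and 27.8% of NMDA peaks, and the last 200 bp held 15% and 10.1%. Peaks at protein-coding ends also fell with distance, from 26.5% to 12.8% in control and from 34.6% to 10.9% in NMDA. The median distance to the noncoding end was 395.5 bp in control (8 to 983) and 393.5 bp in NMDA (8 to 987), beside 397 and 328 bp for peaks at protein-coding ends. Within 250 bp were 46 control peaks (32.9%) and 53 NMDA peaks (33.5%), against 34.2% and 41.7% of coding-end peaks. Where the promoter table gives the strand of the nearest gene, 48 of 72 control peaks (66.7%, exact interval 54.6 to 77.3) and 52 of 79 NMDA peaks (65.8%, 54.3 to 76.1) were nearer to the start than to the 3′ end. For protein-coding ends these shares were 91.3% of 403 and 85.3% of 300. The summit was inside the nearest noncoding gene for 62 control peaks (44.3%) and 68 NMDA peaks (43.0%). The peak itself held an annotated start site for 10 control and 15 NMDA peaks. It was a lncRNA start for 9 of these control peaks and for all 15 NMDA peaks. The control peak at n-TGgcc2 instead held a start of the protein-coding gene Gm38523, 46 bp from the summit. The rule measures to the outer ends of each gene and not to every annotated start.

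**Figure D5:**
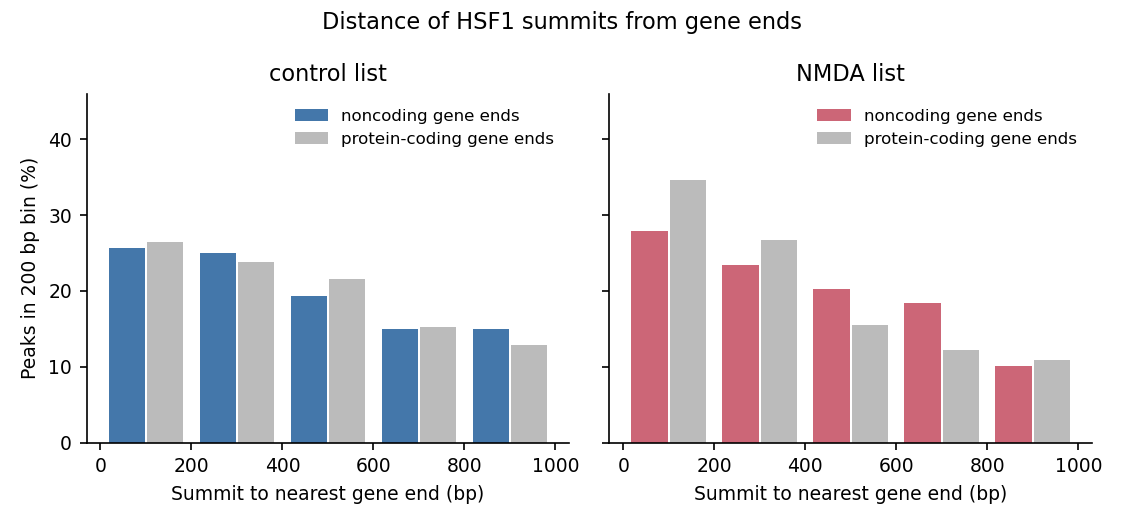
Percent of peaks by distance of the summit from the nearest gene end, in bins of 200 bp, for noncoding ends and for protein-coding ends in each list. Noncoding-end peaks go from 25.7% in the first bin to 15% in the last in control and from 27.8% to 10.1% in NMDA, and the protein-coding NMDA peaks begin at 34.6%.

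The 1000 bp limit fell where peaks of similar fold lay on both sides. In control the nearest peaks inside it were Gm31531 at 983 bp (2.67-fold) and Gm33258 at 979 bp (2.77-fold), and the nearest outside were Gm39273 at 1026 bp (2.67-fold) and Gm50359 at 1035 bp (2.18-fold). In NMDA the nearest inside were Gm38867 at 987 bp (3.44-fold) and C230034O21Rik at 965 bp (3.01-fold), and the nearest outside were Gm7430 at 1001 bp (2.47-fold) and Gm40661 at 1002 bp (3.23-fold).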

How the data were processed

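HSF1 ChIP-seq in mouse cortical neurons was represented by 2 deposited peak lists, from 2 control and 2 NMDA libraries and 1 input. FastQC, Trimmomatic, BWA, SAMtools and MACS2, and the builds mm10 and GRCm38.p6, are named without versions, per the submitters' processing notes. The sources used here do not give how replicates were merged. Each deposited peak has a score (not used), a fold enrichment (a ratio), a −log10 q value and a summit offset from the authors. Library depth is unknown.

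Gene positions and biotypes came from RefSeq GRCm38.p6 (28097 noncoding and 21900 protein-coding genes), without strand or exons. Strand came from the RefSeq promoter table. Overlaps, Fisher's exact tests (two-sided), Benjamini-Hochberg adjustment and exact Clopper-Pearson 95% intervals were computed in Python 3.11.15 with scipy 1.17.1 and pandas 2.3.3. The assignment of summits to gene ends and the overlap of peaks were checked on simulated data. Peaks are not replicates.

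Members and gene lists were chosen with earlier results of these data known. Named were the 10 highest-fold members per list (and ties), members overlapping the other list, genes in both lists, the highest member of each class, members of the lists given by name, and the peaks nearest the 1000 bp limit. The values of 1 lncRNA site found in both lists are not reported here, and it stays in the counts. Alternatives changed the window, the q and fold limits, the protein-coding exclusion, the overlap rule and the sites included.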

Additional observations from a re-analysis of the deposited data

How the results depend on the processing

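No paired analysis was possible because the files hold 1 list per condition and no values per replicate, and leaving out a replicate was not run for the same reason. Of 87 values recomputed under alternatives, 76 kept their direction, their side of the threshold or their range. With a 500 bp window 87 control and 109 NMDA noncoding genes had a peak, and with 2000 bp 250 and 305, since the window sets how many genes can be reached. The odds ratio of NMDA over control fell below 1 without a call at q below 0.05 (0.972 for all noncoding ends, Fisher's exact test, p = 0.837, and 0.969 for lncRNAs, adjusted p = 0.871) and without the protein-coding exclusion (0.904, p = 0.316, and 0.893, adjusted p = 0.465). The share that overlapped the other list was 3.60% in control and 3.85% in NMDA with a 5000 bp exclusion, against 2.87% and 2.56% of other peaks. It was 4.29% in control and 3.80% in NMDA when an overlap of 50% of both peaks was required, against 1.64% and 1.49% of other peaks. The cause was not tested.

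The following alternatives were chosen after seeing the data. With only peaks of at least 4-fold in both lists, 1 control gene and 13 NMDA genes were left. The overlap was 0% in both, where 75% of the other control peaks and 6.51% of the other NMDA peaks of that fold overlapped. The control value rests on 1 peak. The median fold was 4.00 and 6.24, and 0% and 38.5% lay inside a coding gene. The share of noncoding among gene-end peaks gave an odds ratio of 1.34 with a 500 bp window (Fisher's exact test, p = 0.0839) and 2.26 with at least 4-fold (p = 0.645), neither past the threshold, and passed under the other 5 settings. With 1 list per condition, unknown depth and an input from untreated neurons only, a difference between lists cannot be told apart from a difference between their libraries.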
